A study of Homo sapiens with 9 samples.

Results

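The genes described here are 10 known outputs and brakes of ERK signalling, chosen by name: the dual-specificity phosphatases DUSP4, DUSP5 and DUSP6, the Sprouty genes SPRY1, SPRY2 and SPRY4, the Sprouty-related genes SPRED1 and SPRED2, and the transcription factors ETV4 and ETV5. They were chosen with earlier results of these data known, so counts of calls among them are a description and not independent evidence. All 10 were among the 32378 genes of the deposited table and among the 16450 that passed the filter on low counts. RNA-seq was done on SKOV3, a human cell line grown from an ovarian adenocarcinoma, in 3 groups of 3 libraries each. The Carbo+COM33 cells received carboplatin, a platinum drug that crosslinks DNA, together with COM33, a compound known here only by that code name. The Carbo cells received carboplatin alone, and the control cells are labelled only as controls. Every group was the same line in the same medium, with doses and times not given in the labels and no group given COM33 alone. The study's title places the question in carboplatin-induced epithelial to mesenchymal transition and ERK signalling, and in their reversal by COM33.

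ERK is the last kinase of the cascade that runs from receptor tyrosine kinases through RAS, RAF and MEK. Active ERK switches on genes whose products act back on the cascade: MAP kinase phosphatases take the activating phosphates off ERK, while Sprouty and SPRED proteins act upstream on receptor, RAS and RAF steps. ETV4 and ETV5 belong to the PEA3 group of ETS factors, whose transcripts are commonly read as a measure of ERK output.

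The libraries held 13851760 to 15533668 counts over genes. All 10 ovarian and epithelial markers were detected in every group, and their summed level was 469.5 to 543.9 FPKM (fragments per kilobase, divided by the library total) in Carbo+COM33 cells, 600.3 to 662.5 FPKM in Carbo cells and 636.8 to 691.6 FPKM in control cells. ERBB2 alone held 141.1 to 172.6, 218 to 245 and 219.3 to 235.2 FPKM of these sums, and MUC16 at most 0.0425, 0.0646 and 0.0568 FPKM. PAX8 went the other way, with 60.1 to 70.4 FPKM in Carbo+COM33 cells, 38.0 to 56.5 FPKM in Carbo cells and 44.3 to 64.6 FPKM in control cells. Of the 10 markers, 1 had a positive difference against Carbo cells and 2 against control cells. The 7 blood and immune markers summed to at most 0.298 FPKM in Carbo+COM33 cells, 0.569 FPKM in Carbo cells and 0.646 FPKM in control cells. Of these 7 genes, 3 were at 0 in all Carbo+COM33 libraries (CD3E, HBB and LYZ), 2 in all Carbo libraries (CD3E and CD68) and 1 in all control libraries (CD68). The 8 endothelial and fibroblast markers summed to 0.841 to 1.59 FPKM in Carbo+COM33 cells, 1.33 to 4.31 FPKM in Carbo cells and 1.34 to 4.30 FPKM in control cells. Most of these sums was COL1A1 alone, with 0.559 to 1.21, 0.998 to 3.89 and 0.970 to 3.87 FPKM in the same order. The part of these shifts in the results below was not tested. In bulk RNA, fewer cells of a kind and less RNA per cell cannot be told apart. The labels do not say whether the libraries of a group came from separate cultures, so every p-value here measures a spread between samples that may be only technical.

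Among the 10 genes, DUSP4 fell and DUSP5 rose in Carbo+COM33 cells, against Carbo cells and against control cells alike. DUSP6, the 3 Sprouty genes, SPRED1, SPRED2, ETV4 and ETV5 did not pass the test in either comparison. In Carbo cells against control cells no member passed the test without pairing of libraries, and ETV4 passed in a paired fit of these 2 groups. A gene was called when its p-value from edgeR's quasi-likelihood test, adjusted by Benjamini and Hochberg's method over all 16450 tested genes, was under 0.05. In Carbo+COM33 against Carbo cells 2 of the 10 members were called, while 4.96% of all tested genes were called. In Carbo+COM33 against control cells 2 of the 10 were again called, with 6.29% of all genes called. In Carbo against control cells none of the 10 and 0% of all genes were called by edgeR without a replicate block. With a block for replicate number in these 2 groups, whose libraries pair by number in the data, edgeR called 1 of the 10 and 22.7% of all genes, and with the block in all 9 libraries it called 0 members and 0 genes. At an unadjusted p under 0.05 the fit without a block had 2 members, with 16.7% of all genes, and DESeq2 called 0 members. The first 2 comparisons share the Carbo+COM33 libraries, and the other pairs share the Carbo or the control libraries, so their values are given side by side and not counted as separate evidence.

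Before any change between groups, the members differed widely in level per length of transcript. Over all 9 libraries DUSP5 was the highest, with a mean of 49.9 FPKM (range 41.9 to 65.0), followed by SPRED2 with 22.2 FPKM (19.7 to 24.2). ETV5 and DUSP4 came next with means of 15.7 and 15.5 FPKM, and their ranges over libraries overlapped. SPRED1 with 7.76 FPKM and SPRY2 with 7.59 FPKM also overlapped each other. SPRY4 averaged 5.86 FPKM, ETV4 5.38 FPKM and DUSP6 4.87 FPKM, each overlapping its neighbour in this order. SPRY1 was near the limit of detection at 0.172 FPKM, with 89 counts in all 9 libraries together.

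**Figure D1:**
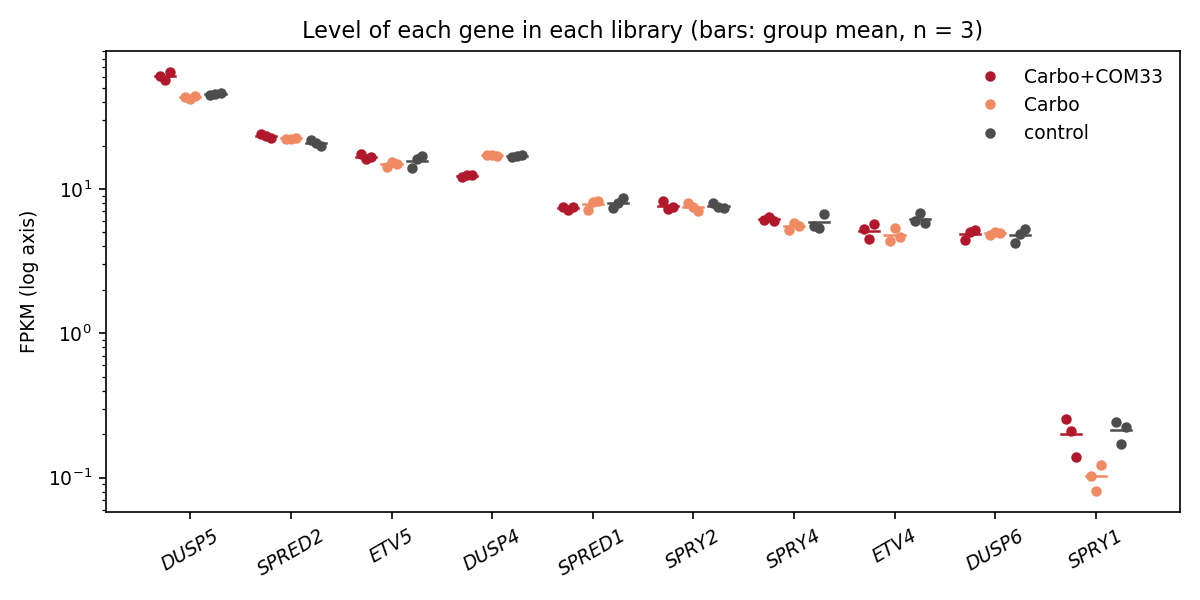
Level of each of the 10 members in every library, as FPKM on a log axis, with Carbo+COM33, Carbo and control libraries as separate points and a bar for each group mean. DUSP5 lies highest and SPRY1 lowest in all groups. The Carbo+COM33 points lie below both other groups for DUSP4, and above both for DUSP5 and, by a narrow margin, for SPRED2.

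DUSP4 (ENSG00000120875, chromosome 8, 29333064 to 29350668, minus strand, GRCh38) encodes a nuclear phosphatase that acts on ERK and also on JNK and p38. It had 90.2, 91.5 and 91.2 CPM (counts scaled to library size) in the Carbo+COM33 libraries, against 124.4, 122.4 and 123 CPM in the Carbo libraries and 121.9, 121.7 and 124.5 CPM in the control libraries. All 3 Carbo+COM33 libraries lay below all 6 others, and the Carbo and control libraries overlapped. The spread within groups was small: the coefficient of variation, as a root mean square over the 3 groups, was 0.986%, below the 2.47% that counting alone gives at this depth.

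DUSP4 fell by 0.44 on the log2 scale in Carbo+COM33 against Carbo cells, with a standard error of 0.0679 and a 95% interval of -0.59 to -0.29. Its adjusted p was 0.00468, and it stood at rank 79 by p-value among the 16450 genes. Against control cells it fell by 0.43 (interval -0.58 to -0.28, adjusted p = 0.00484), a drop by 25.9%. Carbo and control cells differed by 0.01 (interval -0.14 to 0.15), so a change by more than about 0.15 in either direction lies outside that interval. DUSP4 kept its call against Carbo and against control cells under all 20 alternatives run.

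DUSP5 (ENSG00000138166, chromosome 10, 110497838 to 110511544, plus strand) encodes a nuclear phosphatase that is selective for ERK. It had 162.8, 150.8 and 171.7 CPM in the Carbo+COM33 libraries, against 113.4, 108.3 and 114.8 CPM in the Carbo libraries and 117.5, 117.3 and 120.6 CPM in the control libraries. The lowest Carbo+COM33 library was above every other library. The 3 Carbo libraries all lay a little below the 3 control libraries.

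DUSP5 rose by 0.53 on the log2 scale in Carbo+COM33 against Carbo cells (standard error 0.075, interval 0.37 to 0.69, adjusted p = 0.00335), a rise by 44.3%, at rank 46 by p-value. Against control cells it rose by 0.45 (interval 0.29 to 0.61, adjusted p = 0.00638), a rise by 36.6%. The log2 difference was -0.08 in Carbo against control cells (interval -0.24 to 0.08, adjusted p = 0.606), and it missed the threshold although the groups did not overlap. The call against Carbo cells held under all 20 alternatives, while the call against control cells was lost without control replicate 2 (log2 difference 0.44, adjusted p = 0.0561).

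Per length, the 2 nuclear phosphatases stood in another ratio in Carbo+COM33 cells. The ratio of DUSP5 to DUSP4 FPKM was 5.01, 4.57 and 5.22 in the Carbo+COM33 libraries, against 2.53, 2.46 and 2.59 in the Carbo libraries and 2.68, 2.68 and 2.69 in the control libraries. Every Carbo+COM33 library thus had a higher ratio than every other library, and each Carbo library had a lower one than each control library. Across the 9 libraries the log2 CPM of the pair correlated at -0.966, a description over libraries that share the treatment of their group.

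DUSP6 (ENSG00000139318, chromosome 12, 89347232 to 89353271, minus strand) encodes the cytoplasmic phosphatase selective for ERK and is among the most used readouts of ERK activity. It had 21.1, 23.8 and 24.2 CPM in the Carbo+COM33 libraries, against 22.1, 23.1 and 22.9 CPM in the Carbo libraries and 19.6, 22.3 and 24.5 CPM in the control libraries. The groups overlapped throughout. The log2 difference was 0.02 in Carbo+COM33 against Carbo cells (interval -0.22 to 0.26), 0.06 in Carbo+COM33 against control cells (interval -0.18 to 0.30) and 0.04 in Carbo against control cells (interval -0.20 to 0.28). These intervals leave room for changes by up to about 0.3 on the log2 scale, while the DUSP4 and DUSP5 estimates of both Carbo+COM33 comparisons lie outside them. An antisense gene, AC024909.2, shares 1875 exon bases (40.5%) with DUSP6 and had 2 counts in all libraries, and the counting strand is not given in the sources used here, so the DUSP6 level per length is uncertain.

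The Sprouty proteins, which dampen signalling from receptor tyrosine kinases upstream of ERK, were represented by 2 well measured genes and 1 that was barely detected. SPRY2 (ENSG00000136158, chromosome 13, 80335976 to 80340951, minus strand) had 25.5, 22.3 and 23.0 CPM in the Carbo+COM33 libraries, against 24.0, 22.6 and 21.4 CPM in the Carbo libraries and 24.3, 22.7 and 22.2 CPM in the control libraries. These groups overlapped, with log2 differences of 0.06 in Carbo+COM33 against Carbo cells (interval -0.16 to 0.28), 0.03 in Carbo+COM33 against control cells (interval -0.19 to 0.25) and -0.02 in Carbo against control cells (interval -0.24 to 0.20).

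SPRY4 (ENSG00000187678, chromosome 5, 142310427 to 142326455, minus strand) had 40.9, 42.7 and 40.1 CPM in the Carbo+COM33 libraries, against 34.0, 37.9 and 36.6 CPM in the Carbo libraries and 36.4, 35.0 and 43.7 CPM in the control libraries. The Carbo+COM33 libraries lay above the Carbo libraries, and control replicate 3 was the highest of all 9. The log2 difference was 0.19 in Carbo+COM33 against Carbo cells (interval -0.03 to 0.41, adjusted p = 0.295), which missed the threshold. It was 0.10 in Carbo+COM33 against control cells and -0.09 in Carbo against control cells.

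SPRY1 (ENSG00000164056, chromosome 4, 123396795 to 123403760, plus strand) had 14, 12 and 8 counts in the Carbo+COM33 libraries, against 6, 5 and 7 counts in the Carbo libraries and 14, 10 and 13 counts in the control libraries. The Carbo libraries were the lowest 3 of the 9, and the Carbo+COM33 and control libraries overlapped. The log2 difference was 0.99 in Carbo+COM33 against Carbo cells (interval 0.08 to 1.89, unadjusted p = 0.0346, adjusted p = 0.186) and -1.05 in Carbo against control cells (interval -1.94 to -0.16, unadjusted p = 0.0247, adjusted p = 0.263). Neither passed the test. The Carbo libraries enter both differences with opposite signs, and the wide intervals come with the 89 counts in all libraries. SPRY1 passed the filter on low counts only through Carbo+COM33 and control libraries. That filter favours a gap to the Carbo libraries, so the gap and the unadjusted p-values are no support for a change.

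DUSP6 and SPRY2 carried no call in any comparison. The sequences before their RefSeq start sites are given here because these genes are the textbook ERK targets against which DUSP4 and DUSP5 were set. The RefSeq promoter table (GRCh38.p14) held 6 of the 10 members: DUSP6, SPRY1, SPRY2, SPRY4, SPRED1 and SPRED2. DUSP4, DUSP5, ETV4 and ETV5 were not matched. The 250 bases before the RefSeq start are shown 5′ to 3′ on the minus strand, chr12:89352502-89352751 for DUSP6 and chr13:80341127-80341376 for SPRY2, with capitals marking the ETS core CCGGAA. On the gene coordinates given above, which reach 89353271 for DUSP6, the DUSP6 bases lie inside that gene, and the SPRY2 bases lie before theirs. SPRY2 has several windows, and the window shown was picked because it held CCGGAA. Its other windows held none of the motifs searched below.
DUSP6: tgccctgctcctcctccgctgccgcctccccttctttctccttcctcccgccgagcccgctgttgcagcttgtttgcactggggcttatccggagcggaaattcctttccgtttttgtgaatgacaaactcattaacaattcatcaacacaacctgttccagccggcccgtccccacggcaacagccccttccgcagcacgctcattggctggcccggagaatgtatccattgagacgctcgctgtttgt
SPRY2: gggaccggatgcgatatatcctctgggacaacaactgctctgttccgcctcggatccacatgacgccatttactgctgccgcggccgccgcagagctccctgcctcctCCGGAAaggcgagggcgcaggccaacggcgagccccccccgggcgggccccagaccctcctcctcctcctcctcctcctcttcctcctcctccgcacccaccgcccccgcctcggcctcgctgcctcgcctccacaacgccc
In windows that run from 250 bases before to 50 bases after the start, searched on both strands, CCGGAA was present in 17.2% of 35116 promoters. The 6 matched members have 10 such windows, of which 2 held CCGGAA. In a SPRY1 window it started 67 bases, and in the SPRY2 window shown 142 bases, before the start site. The other windows of these genes held no CCGGAA. The AP-1 motif TGANTCA was present in 7.7% of all promoters and in 1 member window, an alternative start of SPRED2. The cyclic AMP element TGACGTCA (1.8% of promoters) and the CArG box (1.3% of promoters) were in no member window. These 4 motifs do not overlap one another in the member windows, and the DUSP6 window held none of them.

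SPRED1 and SPRED2 encode membrane proteins that bind neurofibromin, the RAS-inactivating product of NF1, and hold RAS signalling down. SPRED1 (ENSG00000166068, chromosome 15, 38252326 to 38357249, plus strand) had 63.3, 60.1 and 63.0 CPM in the Carbo+COM33 libraries, against 59.2, 66.7 and 68.1 CPM in the Carbo libraries and 61.1, 65.2 and 71.2 CPM in the control libraries. The groups overlapped, and the log2 differences were -0.06 in Carbo+COM33 against Carbo cells (interval -0.25 to 0.13), -0.08 in Carbo+COM33 against control cells (interval -0.27 to 0.11) and -0.03 in Carbo against control cells (interval -0.22 to 0.16).

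SPRED2 (ENSG00000198369, chromosome 2, 65310851 to 65432637, minus strand) had 127.1, 121.9 and 117.8 CPM in the Carbo+COM33 libraries, against 114, 113.8 and 116.6 CPM in the Carbo libraries and 112.7, 106.1 and 101 CPM in the control libraries. None of the 3 groups overlapped another. The steps were small, with log2 differences of 0.09 in Carbo+COM33 against Carbo cells (adjusted p = 0.509), 0.20 in Carbo+COM33 against control cells (interval 0.04 to 0.36, unadjusted p = 0.0194, adjusted p = 0.125) and 0.11 in Carbo against control cells (adjusted p = 0.467). No step passed the test. NF1 itself differed by -0.08 in Carbo+COM33 against Carbo cells and was not called.

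ETV4 separated both carboplatin groups from the control cells, as SPRED2 did, but with lower values in the treated cells, and without passing the test. ETV4 (ENSG00000175832, chromosome 17, 43527844 to 43579620, minus strand) had 19.3, 16.3 and 20.7 CPM in the Carbo+COM33 libraries, against 15.5, 19.2 and 16.8 CPM in the Carbo libraries and 21.8, 24.5 and 20.8 CPM in the control libraries. All 6 carboplatin-treated libraries lay below all 3 control libraries, by a narrow margin in the case of Carbo+COM33 replicate 3, and the treated groups overlapped each other. The log2 difference was 0.13 in Carbo+COM33 against Carbo cells (interval -0.15 to 0.41, adjusted p = 0.598), -0.25 in Carbo+COM33 against control cells (interval -0.53 to 0.02, adjusted p = 0.246) and -0.38 in Carbo against control cells (interval -0.66 to -0.11, unadjusted p = 0.0102, adjusted p = 0.233).

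The Carbo and control libraries were paired by replicate number in the data, and a fit of these 2 groups with the number as a block changed the ETV4 call, which a block in all 9 libraries did not. In that paired fit ETV4 fell by 0.39 on the log2 scale in Carbo against control cells (adjusted p = 0.00608), where 22.7% of all genes were called. It was the only member called there. Leaving out pair 2 ended the call (-0.40, adjusted p = 0.0534), while leaving out pair 1 or pair 3 kept it. With the trend over GC content and length removed from the same paired fit, the difference was -0.20 (adjusted p = 0.197), and ETV4 has the highest GC content of the members, 60.8%. That fit instead called SPRED1, at -0.19 (adjusted p = 0.0399). ETV4 shares 68 exon bases (1.9%) with DHX8, a gene with 11200 counts, so a small part of its count may belong to either gene.

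ETV5 (ENSG00000244405, chromosome 3, 186046308 to 186110318, minus strand), the other PEA3 factor, had 103.1, 95.5 and 97.6 CPM in the Carbo+COM33 libraries, against 82.1, 87.9 and 86.2 CPM in the Carbo libraries and 80.9, 92.1 and 97.5 CPM in the control libraries. The Carbo+COM33 libraries lay above the Carbo libraries, and the control libraries overlapped both. The log2 difference was 0.21 in Carbo+COM33 against Carbo cells (interval 0.02 to 0.39, unadjusted p = 0.0291, adjusted p = 0.170) and 0.13 in Carbo+COM33 against control cells (adjusted p = 0.376). It was -0.08 in Carbo against control cells (adjusted p = 0.654). None of these passed the test.

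**Figure D2:**
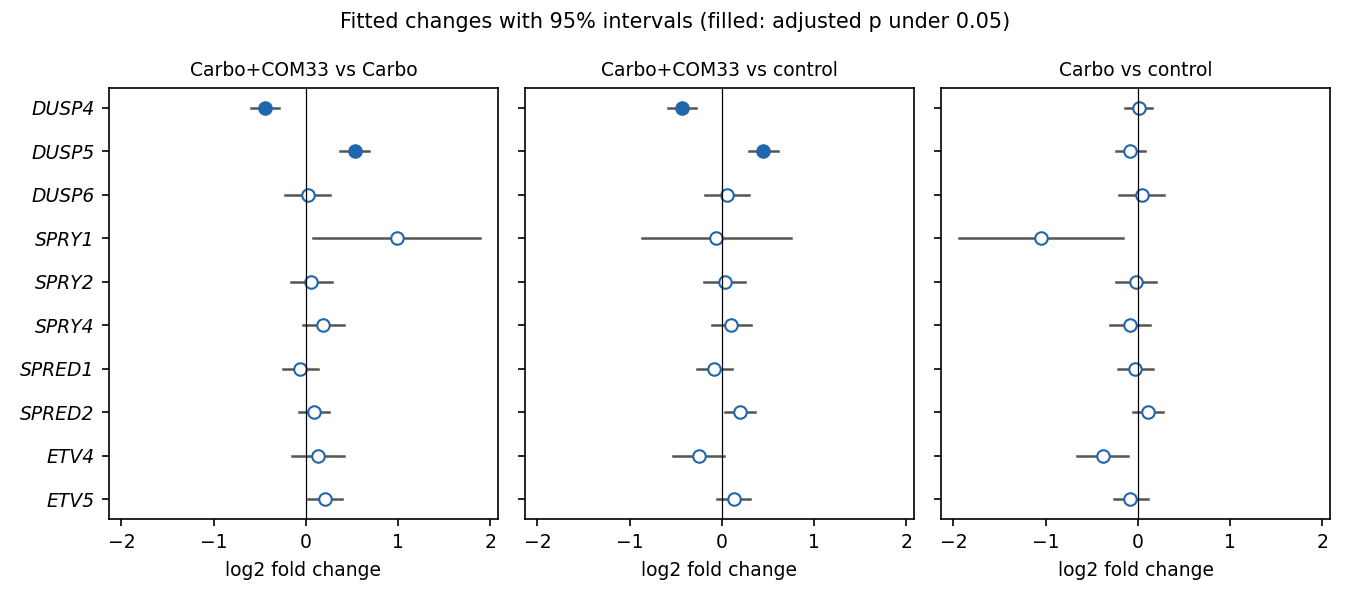
Log2 fold change of each member with its 95% interval in the 3 comparisons, Carbo+COM33 against Carbo, Carbo+COM33 against control and Carbo against control, with filled points for called genes. DUSP4 at -0.44 and -0.43 and DUSP5 at 0.53 and 0.45 are the called members, and the other members have open points in all 3 panels.

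Counted over the members, 6 of the 10 had groups that did not overlap in Carbo+COM33 against Carbo cells, as did 23.7% of all tested genes. They were DUSP4, which was lower in Carbo+COM33 cells, and DUSP5, SPRY1, SPRY4, SPRED2 and ETV5, which had higher values there. In Carbo+COM33 against control cells 4 of the 10 did not overlap (DUSP4, DUSP5, SPRED2 and ETV4), where the share of all genes was 28.7%. The groups did not overlap for 4 of the 10 in Carbo against control cells (DUSP5, SPRY1, SPRED2 and ETV4), where the share was 22.5%. SPRY1 enters these counts although it passed the filter only through Carbo+COM33 and control libraries, which favours its gap to the Carbo libraries. The median log2 difference of the 10 members was 0.11 in Carbo+COM33 against Carbo cells, 0.04 in Carbo+COM33 against control cells and -0.05 in Carbo against control cells. The medians of all genes were -0.01 in the first 2 of these comparisons and 0.00094 in the third. The called members went in opposite directions: 1 was higher, where 2.43% of all genes were called higher in Carbo+COM33 against Carbo cells and 3.2% against control cells. The other was lower, where 2.53% were called lower against Carbo cells and 3.09% against control cells.

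Set against DUSP6 and the Sprouty genes within each library, with SPRY2 and SPRY4 standing for the Sprouty genes, DUSP4 ratios were lower and DUSP5 ratios higher in Carbo+COM33 cells. The DUSP4 to DUSP6 ratio of FPKM values averaged 2.53 ± 0.175 in Carbo+COM33 cells, 3.47 ± 0.107 in Carbo cells and 3.57 ± 0.366 in control cells (SD, n = 3 each). The DUSP5 to DUSP6 ratio averaged 12.5 ± 1.22 in Carbo+COM33 cells, 8.75 ± 0.403 in Carbo cells and 9.56 ± 0.964 in control cells. The first ratio was lower and the second higher in Carbo+COM33 cells, each by more than the spread within groups.

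The directions were the same with SPRY2 or SPRY4 as the denominator, while SPRY1, at 89 counts in all, was not used for ratios. DUSP4 to SPRY2 was 1.62 ± 0.124 in Carbo+COM33 cells, 2.28 ± 0.119 in Carbo cells and 2.23 ± 0.125 in control cells. DUSP5 to SPRY2 was 7.99 ± 0.635 in Carbo+COM33 cells, 5.76 ± 0.409 in Carbo cells and 5.98 ± 0.346 in control cells. DUSP4 to SPRY4 was 1.998 ± 0.0590 in Carbo+COM33 cells, 3.09 ± 0.199 in Carbo cells and 2.92 ± 0.301 in control cells. The step was smaller for DUSP5 to SPRY4, with 9.87 ± 0.946 in Carbo+COM33 cells, 7.81 ± 0.602 in Carbo cells and 7.82 ± 0.790 in control cells. The ratio of SPRY2 to DUSP6, by contrast, was 1.58 ± 0.234 in Carbo+COM33 cells, 1.52 ± 0.117 in Carbo cells and 1.61 ± 0.257 in control cells, differing by less than the spread. The ratio of SPRY4 to DUSP6 was 1.27 ± 0.0990 in Carbo+COM33 cells, 1.12 ± 0.0369 in Carbo cells and 1.23 ± 0.104 in control cells, and its Carbo+COM33 libraries lay above the Carbo libraries and overlapped the control libraries. These ratios repeat the tested levels and were given no test of their own.

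**Figure D3:**
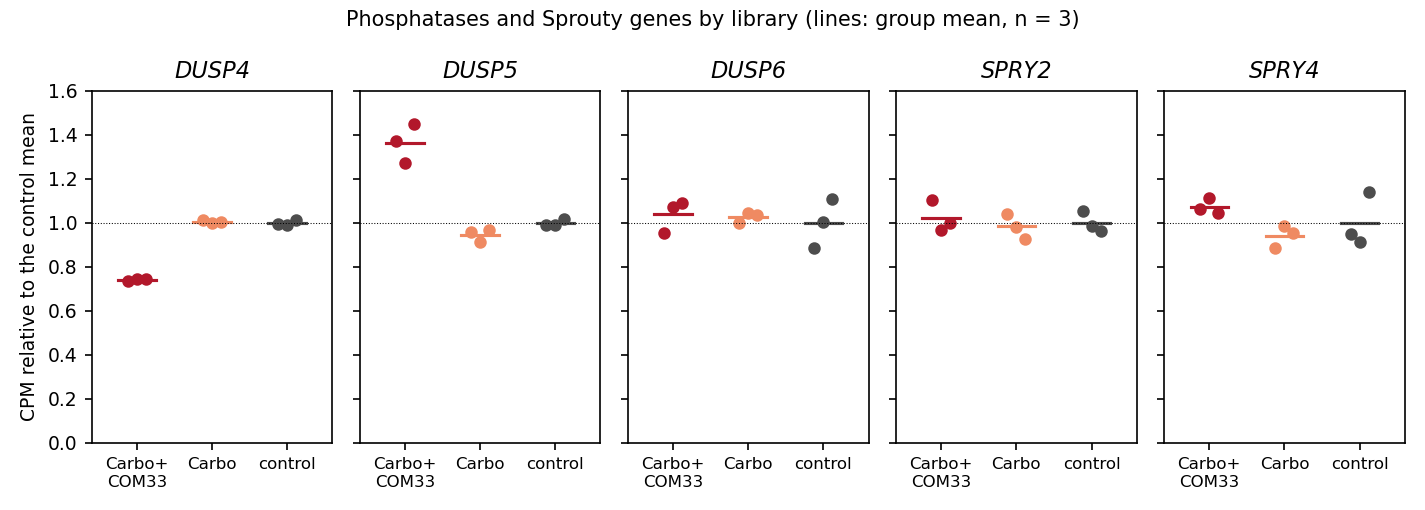
CPM of DUSP4, DUSP5, DUSP6, SPRY2 and SPRY4 in each library, divided by the gene's mean over the control libraries, with the 3 groups side by side and a line at each group mean. The Carbo+COM33 points lie below the others for DUSP4 and above them for DUSP5, and overlap the control points for DUSP6, SPRY2 and SPRY4.

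The members varied together only in part over the 9 libraries. By Pearson's correlation of log2 CPM, a description over libraries that share treatments and depth, SPRY4 and ETV5 correlated at 0.768 and DUSP5 and ETV5 at 0.747. DUSP4 correlated with SPRED2 at -0.741 and with ETV5 at -0.707. DUSP6 stood apart from both nuclear phosphatases, at -0.147 with DUSP4 and 0.175 with DUSP5, and correlated with SPRY2 at -0.701.

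Among 13353 other genes, those whose pattern over the 9 libraries was most like that of DUSP4 were HOXB6 (0.992), TEC (0.990) and ARRDC3 (0.983). Those nearest to DUSP5 were FAIM (0.980), LINC02009 (0.979) and NEURL3 (0.979). The nearest to DUSP6 were ZNF30 (0.907), MCAM (0.898) and PDE9A (0.892). SPRY2 was closest to MYC (0.961), the growth-promoting transcription factor, then to TXNDC15 (0.922) and PEX19 (0.912). SPRY4 was closest to ZNF324 (0.883), MRPL20 (0.881) and SRP19 (0.862), and SPRED1 to MYL12B (0.956), NCL (0.948) and SGF29 (0.942). SPRED2 was closest to ZNF124 (0.975), KIF3B (0.972) and DYNLT3 (0.962). Nearest to ETV4 were ZNF276 (0.963), IL11RA (0.939) and SERGEF (0.939), and nearest to ETV5 were LGALSL (0.968), DNAH17 (0.910) and AC010976.1 (0.906). SPRY1, at its low counts, was closest to ARHGAP27P1-BPTFP1-KPNA2P3 (0.906), UBE2E2 (0.891) and NDUFB9 (0.885). The high values are the top of a ranking of many genes over few libraries.

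The other MAP kinase phosphatases on the list were not called in any comparison: 0 of 6 tested genes passed edgeR's test, and DUSP9 was too low to test. At an unadjusted p under 0.05 there were 2 in Carbo+COM33 against Carbo cells, 4 in Carbo+COM33 against control cells and 0 in Carbo against control cells, and DESeq2 called 0, 1 and 0 of them in these comparisons. Of all genes, 22.4% had such a p in Carbo+COM33 against Carbo cells, 24% in Carbo+COM33 against control cells and 16.7% in Carbo against control cells. DUSP1, the stress-induced nuclear phosphatase, had 142, 124 and 146.1 FPKM in the Carbo+COM33 libraries, against 151.4, 137.4 and 143.1 FPKM in the Carbo libraries and 177.9, 145.7 and 140.4 FPKM in the control libraries, and was the highest of the listed phosphatases. Its groups overlapped. DUSP16, which acts on JNK and p38, came nearest to the threshold, with a log2 difference of 0.29 in Carbo+COM33 against Carbo cells (adjusted p = 0.107) and 0.33 against control cells (adjusted p = 0.0676). The median of the 6 was 0.20 in Carbo+COM33 against Carbo cells, 0.24 in Carbo+COM33 against control cells and 0.01 in Carbo against control cells.

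The remaining genes of the Sprouty, SPRED and PEA3 families, SPRY3, SPRED3 and ETV1, were also not called in any comparison by edgeR or DESeq2, with 1, 1 and 0 of the 3 at an unadjusted p under 0.05 in the same order of comparisons. Their log2 differences in Carbo+COM33 against Carbo cells were -0.20 for SPRY3, -0.11 for SPRED3 and -0.51 for ETV1 (adjusted p = 0.219 for ETV1). ETV1 had 29, 51 and 42 counts in the Carbo+COM33 libraries, against 63, 67 and 54 counts in the Carbo libraries and 40, 47 and 60 counts in the control libraries.

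Of 22 tested genes on a list of other ERK outputs, 3 rose and 1 fell in Carbo+COM33 against Carbo cells. Over all tested genes, 2.43% were called higher and 2.53% lower in this comparison. CCND1, which encodes cyclin D1 of the G1 phase, averaged 238.4 ± 21.3 CPM in Carbo+COM33 cells, 148.8 ± 23.3 CPM in Carbo cells and 144.1 ± 16.0 CPM in control cells (SD, n = 3 each). It rose by 0.68 on the log2 scale against Carbo cells (adjusted p = 0.00717) and by 0.73 against control cells (adjusted p = 0.00542). Against control cells it was the only gene of the list called, beside 6.29% of all tested genes. Among fits that left out 1 library, the first call was lost without Carbo replicate 2 (adjusted p = 0.0598) and the second without control replicate 2 (adjusted p = 0.0515). Over all 20 alternatives the first call held in 17 and the second in 18.

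The other genes of this list called against Carbo cells were less stable. SLCO4A1, an organic anion transporter, rose by 0.55 (adjusted p = 0.0305), SPHK1, a sphingosine kinase, rose by 0.55 (adjusted p = 0.0490), and AREG, an EGF receptor ligand, fell by 0.80 (adjusted p = 0.0364). SLCO4A1 kept its call in 3 of 9 fits that left out 1 library, SPHK1 in 2 and AREG in 2. Over all 20 alternatives SLCO4A1 kept it in 11, SPHK1 in 8 and AREG in 9. EGR1, an immediate early gene of the ERK pathway, had a log2 difference of -1.43 (adjusted p = 0.0765), and was named after its value was seen. Its libraries overlapped, with 9.13, 13.4 and 15.1 CPM in Carbo+COM33 cells, 13.9, 44.2 and 43.2 CPM in Carbo cells and 10.7, 28.6 and 34.5 CPM in control cells. The replicate block in the first 2 of these groups, which were not paired in the data, called EGR1 (-1.31, adjusted p = 0.0162). FOSL1, an AP-1 gene of the same list, went the other way, at 0.31 (adjusted p = 0.0770), and was also not called. Its Carbo+COM33 libraries lay above its Carbo libraries. With the trend over GC content and length removed, FOSL1 was called (0.26, adjusted p = 0.0439). The list's median was -0.07 in Carbo+COM33 against Carbo cells, 0.03 in Carbo+COM33 against control cells and 0.03 in Carbo against control cells.

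**Figure D4:**
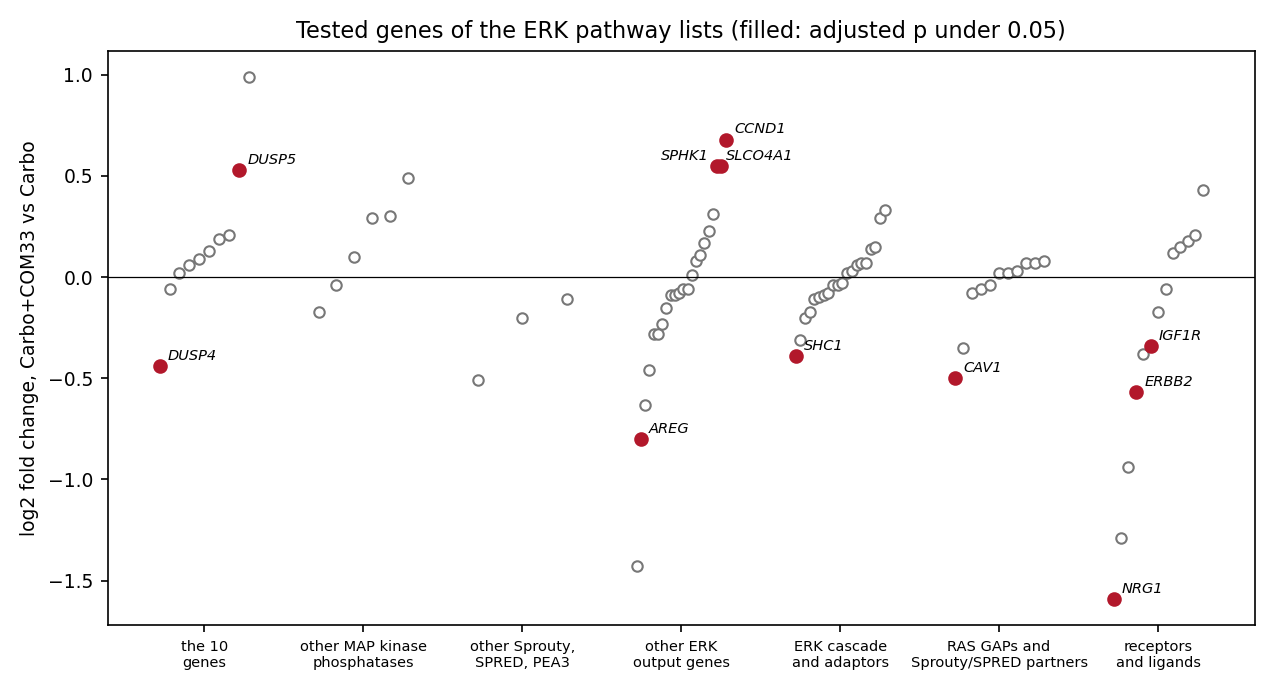
Log2 fold change in Carbo+COM33 against Carbo cells of every tested gene of the members and of the other ERK pathway lists, with called genes filled and named. DUSP4 and DUSP5 stand on opposite sides of 0, as do CCND1 at 0.68 and AREG at -0.80 among the other ERK outputs.

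Further up the pathway, 1 cascade or adaptor gene was called lower against Carbo cells, and 1 higher and 1 lower against control cells. Of all tested genes, 4.96% were called against Carbo cells and 6.29% against control cells. Of 20 genes of the cascade and its adaptors, SHC1, an adaptor between receptors and RAS, averaged 91.9 ± 9.21 CPM in Carbo+COM33 cells, 120.9 ± 13.3 CPM in Carbo cells and 141.5 ± 4.78 CPM in control cells. It fell by 0.39 on the log2 scale against Carbo cells (adjusted p = 0.0375, kept in 3 of 9 fits that left out 1 library) and by 0.62 against control cells (adjusted p = 0.00465, kept in all 9). NRAS, a RAS GTPase, rose by 0.49 against control cells (adjusted p = 0.0155, kept in 5 of 9). Of 11 RAS-inactivating and Sprouty or SPRED partner genes, only CAV1, the caveolin that binds Sprouty and SPRED proteins, was called: it fell by 0.50 against Carbo cells (adjusted p = 0.0142, kept in 5 of 9), with 195.8 ± 12.1 CPM in Carbo+COM33 cells, 277.3 ± 40.7 CPM in Carbo cells and 234 ± 5.34 CPM in control cells. Over all 20 alternatives SHC1 kept its call in 9 against Carbo cells and in 20 against control cells. NRAS kept its call in 13 and CAV1 in 13.

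Among 13 tested receptors and ligands, 3 fell in Carbo+COM33 against Carbo cells, where 2.53% of all tested genes were called lower. ERBB2, the receptor known to be amplified in SKOV3, averaged 1630 ± 159 CPM in Carbo+COM33 cells, 2415 ± 155 CPM in Carbo cells and 2335 ± 65.7 CPM in control cells. It fell by 0.57 on the log2 scale against Carbo cells (adjusted p = 0.00508) and by 0.52 against control cells (adjusted p = 0.00807). NRG1, a ligand of the ERBB receptors, fell by 1.59 against Carbo cells (adjusted p = 0.0153), and its Carbo libraries were widely spread, with 50.1 ± 4.28 CPM in Carbo+COM33 cells and 151.4 ± 76.6 CPM in Carbo cells.

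IGF1R, the receptor of insulin-like growth factors, fell by 0.34 against Carbo cells (adjusted p = 0.0371) and by 0.34 against control cells (adjusted p = 0.0313). MET, the hepatocyte growth factor receptor, rose by 0.33 against control cells (adjusted p = 0.0310). Fits that left out 1 library kept ERBB2 in all 9 against Carbo cells and in 6 of 9 against control cells, NRG1 in 4, IGF1R in 2 against Carbo cells and in 4 against control cells, and MET in 4. Over all 20 alternatives ERBB2 kept its call in 20 against Carbo cells and in 17 against control cells. IGF1R kept its call in 7 and 10 in the same order, NRG1 in 12 and MET in 11.

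No gene of these 4 lists was called by edgeR in Carbo against control cells without the replicate block. At an unadjusted p under 0.05 there were 3 of the other ERK outputs, 5 cascade genes, 4 RAS-inactivating and partner genes and 1 receptor or ligand, beside 16.7% of all genes, and DESeq2 called 0. With the block in the 2 groups, 2 of the other ERK outputs rose and 4 fell, 6 cascade genes rose and 5 fell, 4 of the RAS-inactivating and partner genes rose and 1 fell, and 2 receptors or ligands rose and 1 fell. These counts stand beside the 22.7% of all genes that the paired fit called.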

How the data were processed

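Poly-A RNA of 9 SKOV3 samples was sequenced, and a table of gene counts and FPKM was deposited. Gene counts are whole numbers as the authors deposited them. FPKM values were also deposited by the authors. With 1 length per gene drawn from these same FPKM values, count over length and library total gives them back to within 8.2e-12. HISAT2, HTSeq 0.11.2, DESeq2 1.26.0 and GRCh38 are named in the submitters' processing notes, and their settings, among them the counting strand, are not given in the sources used here. All 32378 gene IDs matched GENCODE release 29, the source of coordinates. The lengths used are those drawn from FPKM, and for 32283 genes they equal the GENCODE exon length to within 0.5 bases.

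Groups follow the sample labels. Genes were tested on the counts with edgeR 4.0.16 (R 4.3.3): filterByExpr, TMM factors (0.982 to 1.01), and 1 quasi-likelihood fit of all 9 libraries with 3 group means. P-values were adjusted by Benjamini and Hochberg's method over 16450 genes, and genes under 0.05 were called. CPM uses TMM-scaled totals, and FPKM served for levels, ratios and alternatives. The fit was tested on simulated data. The 10 members and the lists were chosen with earlier results of these data known. Named are all members, the called genes of each list (at most 4 by size in a comparison) and the 3 genes most correlated with a member, taken from tested genes whose log2 CPM averaged above 1. Named outside this rule are DUSP1, DUSP9, DUSP16, SPRY3, SPRED3, ETV1, NF1, EGR1 and FOSL1, some marker genes, and genes that overlap a member. Of these, DUSP16, EGR1 and FOSL1 were picked by their values.

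Replicate numbers were checked on 6607 genes with a mean log2 CPM over 5. Deviations of same-numbered Carbo and control libraries correlated at 0.824, 0.565 and 0.748, each best with its own number, so these groups count as paired by the data, as the labels give only the numbers. Carbo+COM33 libraries were not paired with Carbo (-0.015, 0.138 and -0.388) or control libraries (0.0851, 0.101 and -0.42). The labels do not say whether the Carbo+COM33 group was handled together with the others. A difference in handling cannot be told apart from COM33 in the comparisons of that group. The alternatives were no filter, DESeq2 1.42.0, its size factors, limma 3.58.1 on log2(FPKM + 1) or log2(FPKM + 0.1), fits of only 2 groups, the replicate block in 2 groups or in all 9 libraries, removal of the trend over GC content and length, and leaving out each library. Counts limit precision, as tests on SPRY1 rest on 89 counts.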

Additional observations from a re-analysis of the deposited data

How the results depend on the processing

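Of 630 member values under the alternatives, 601 kept their direction and their side of the threshold, 5 were called in addition, 1 was no longer called and 23 changed sign, none of these called in either case. The causes were not tested. DUSP4 in Carbo+COM33 against Carbo cells ranged over -0.46 to -0.43 and DUSP5 over 0.48 to 0.58. The genes called in Carbo+COM33 against Carbo cells, 816, became 1876 with no filter, 1340 with DESeq2, 442 with limma on log2(FPKM + 1), 159 with log2(FPKM + 0.1), 157 with log2(FPKM + 1) and no filter, 1242 with the GC and length trend removed, 502 with the replicate block in 2 groups and 1554 with it in all 9 libraries. Leaving out 1 library gave 120 (without Carbo replicate 2) to 2721 (without Carbo replicate 1).

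Against control cells the 1035 genes became 1934 with no filter, 1563 with DESeq2, 588, 271 and 288 with the same 3 limma settings, 1625 with the replicate block in all 9 libraries and 1710 with the block in 2 groups and the trend removed. Leaving out 1 library gave 114 (without control replicate 2) to 2208 (without Carbo+COM33 replicate 3) and 1 to 2 members called. In Carbo against control cells the 0 genes became 928 with no filter, 133 with DESeq2, 5 with limma and no filter, 3739 with the replicate block in 2 groups and 1702 with that block and the trend removed, and stayed at 0 with the block in all 9 libraries. The block in 2 groups called 1 member, ETV4 or, with the trend removed, SPRED1, and the block in all 9 libraries called 0. Leaving out 1 library gave 0 to 1034 genes (1034 without Carbo replicate 1), and leaving out 1 library or pair gave 0 to 2 members. The block changed no other call of a member.

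Signs changed only near 0. In Carbo+COM33 against Carbo cells DUSP6 was -0.01 with each limma setting, and SPRED1 was 0.01 with the trend removed, with or without the block. In Carbo against control cells with the trend removed DUSP5 was 0.05 with or without the block, and DUSP6 was -0.00088 without and -0.00066 with it. Leaving out 1 library gave DUSP6 -0.02 to 0.08 in Carbo+COM33 against Carbo cells. In Carbo+COM33 against control cells it gave DUSP6 -0.02 to 0.14, SPRY1 -0.27 to 0.15 and SPRY2 -0.03 to 0.08. In Carbo against control cells, libraries or pairs left out gave DUSP4 -0.01 to 0.02, DUSP6 -0.04 to 0.12, SPRY2 -0.07 to 0.02, SPRY4 -0.18 to 0.02 and SPRED1 -0.08 to 0.03, and SPRED2 was called without pair 1 (0.15, adjusted p = 0.0394).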
